A study of Mus musculus with 18 samples.

Results

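The 10 genes described here build and anchor the postsynaptic side of the neuromuscular junction. They are the organizers Agrn, Lrp4, Musk, Dok7 and Rapsn, the cleft enzyme Ache with its collagen anchor Colq, the adhesion molecule Ncam1, the growth factor Nrg1 and the transcription factor Etv5. They were chosen by name, and the level of each is the summed TPM (transcript abundance corrected for length and scaled to a common total, then normalized between samples by the authors) of its annotated transcripts. All 10 were found among the 35150 genes summed, through 72 transcripts. RNA was sequenced from biopsies of skin and muscle of the rostral whisker pad in 18 samples from 9 mice. In each mouse the right pad was denervated by cutting 2 branches of the facial nerve, the buccal and the superior marginal, and the left pad was a sham control in which the skin was opened and closed again over an uncut nerve. Each of days 1, 3 and 7 had 3 mice, so every comparison between sides had 3 denervated and 3 sham samples. Right against left and lesion against sham cannot be told apart. The labels give no age or genotype for these mice.

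At a mature junction the motor nerve terminal secretes agrin, which binds LRP4 on the muscle fibre and so activates the receptor tyrosine kinase MuSK. Dok-7 is the cytoplasmic activator of MuSK, and rapsyn clusters the acetylcholine receptors under the nerve. In the cleft, acetylcholinesterase breaks down the transmitter and is held in the basal lamina by the collagen tail ColQ. Muscle fibres that lose their nerve are known for spreading acetylcholine receptors and NCAM over the whole fibre surface, outside the former synapse.

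The samples held both tissues of the label. All 10 muscle fibre markers and all 6 keratinocyte markers were above 0 in every group, with summed levels of 4521 to 27536 TPM and 5717 to 10165 TPM. The share of muscle was not even. A factor made of the geometric mean of the 10 muscle markers, with 1 as the average over samples, was 0.215 and 0.347 in the sham and denervated sample of day 1 replicate 1, and 0.734 to 1.38 in the other 4 samples of day 1. It lay between 0.846 and 1.18 at day 3 and between 1.29 and 1.80 at day 7. Depth, estimated from the smallest steps of the values, was 10400000 to 32300000 reads per sample. In bulk tissue, fewer cells of a type and less RNA per cell cannot be told apart.

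The sequences below show parts of these genes to which the text refers. ENSMUST00000194844 is a short annotated piece of Ncam1 (GRCm38 chr9:49523626-49543030, minus strand, GENCODE M21). Its capitals mark 3 exons of 15, 48 and 42 bases, the cassette of the extracellular stalk known as the muscle-specific domain of NCAM, with the common exons on either side in lower case.
Ncam1 muscle exon piece: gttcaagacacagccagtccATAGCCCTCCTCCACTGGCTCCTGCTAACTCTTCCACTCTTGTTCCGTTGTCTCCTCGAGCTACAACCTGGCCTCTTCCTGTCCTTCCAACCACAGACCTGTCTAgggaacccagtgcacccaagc
The promoters of Musk (chr4:58285712-58286011, plus strand) and Dok7 (chr5:35056516-35056815, plus strand), organizers that both rose at day 3, are shown as a description, with no role tested. They are RefSeq windows of GRCm38.p6 that run from 250 bases before to 50 bases after the start site, and the capitals mark E-boxes (CANNTG on both strands), the motif of myogenic factors such as myogenin.
Musk promoter: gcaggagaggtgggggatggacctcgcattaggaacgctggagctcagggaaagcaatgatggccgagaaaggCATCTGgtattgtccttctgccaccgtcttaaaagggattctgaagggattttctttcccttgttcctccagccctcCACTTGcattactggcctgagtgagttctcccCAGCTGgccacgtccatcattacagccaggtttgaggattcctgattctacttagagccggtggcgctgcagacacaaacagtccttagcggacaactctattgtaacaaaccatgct
Dok7 promoter: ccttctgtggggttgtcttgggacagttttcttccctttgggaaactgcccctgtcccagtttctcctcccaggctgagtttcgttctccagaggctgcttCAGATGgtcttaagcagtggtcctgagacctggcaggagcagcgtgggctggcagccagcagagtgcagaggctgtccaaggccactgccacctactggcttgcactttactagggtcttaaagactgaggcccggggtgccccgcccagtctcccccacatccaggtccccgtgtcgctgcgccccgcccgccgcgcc

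On the sham side the levels of the 10 genes per length covered a wide range. Agrn was highest, with a median of 80.1 TPM over 9 sham samples (range 72.0 to 117), and did not overlap with Lrp4, which followed at 19.8 TPM (15.5 to 28.7). A transcript annotated as retaining an intron held 80.9% of the Agrn sum, and without it this order was reversed. In coding transcripts of at least 300 bases, sham Agrn lay below sham Lrp4 at each day. The ranges were 7.68 to 13.8 against 18.6 to 22.5 TPM at day 1 and 12.7 to 14.9 against 15.1 to 17.2 TPM at day 3. At day 7 they were 8.72 to 13.6 against 14.3 to 27.3 TPM. Ache had a median of 13.9 TPM, and its range of 5.0 to 28.3 TPM overlapped with that of Lrp4. Neighbours in the middle of the order were not separated by their spread: Etv5 at 7.20, Dok7 at 6.97, Ncam1 at 5.34, Rapsn at 5.05 and Colq at 3.41 TPM had overlapping ranges. Nrg1 at 1.46 TPM and Musk at 0.463 TPM were lowest, and their ranges met at 1.11 TPM, the lowest Nrg1 and the highest Musk value.

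**Figure D1:**
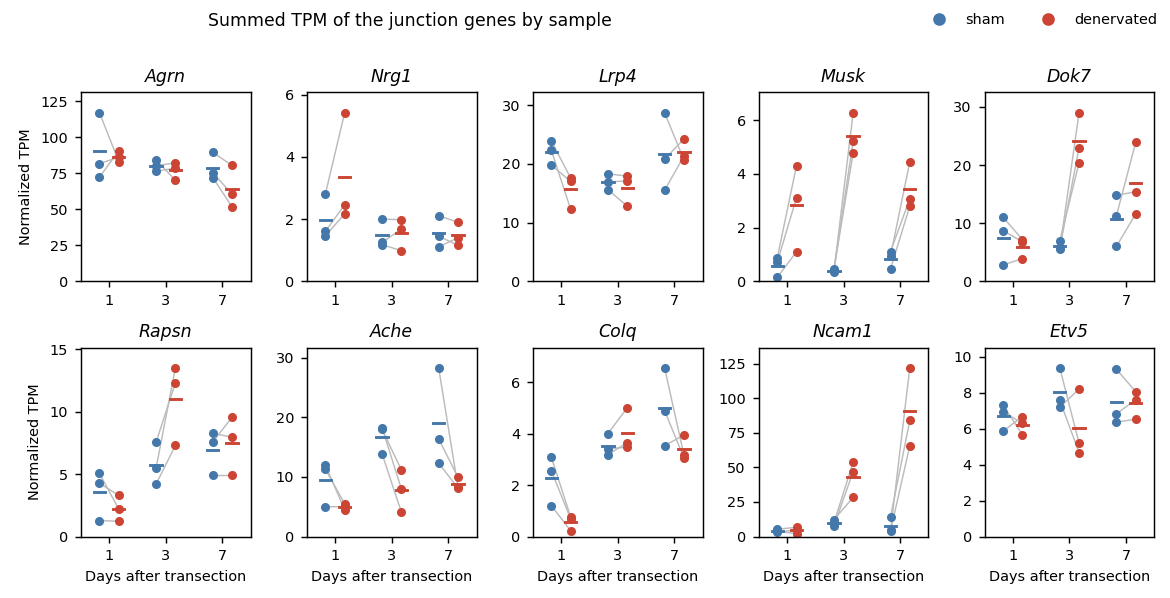
Summed TPM (y axis, linear, from 0) of the 10 genes against days after transection. Points are samples (blue sham, red denervated), grey lines join both sides of a mouse, and bars are group means; the red points of Musk lie above the blue ones at every day, while those of Agrn and Lrp4 overlap at days 3 and 7.

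Denervated and sham samples were compared at each day with limma on log2(TPM + 0.5) over all genes that reached 1 TPM in no fewer than 47% of samples, with Benjamini-Hochberg adjustment and a threshold of 0.05. All 10 genes passed that filter at each day. Musk did so at days 1 and 3 only through its denervated samples, since every sham value lay under 1 TPM. It had to differ to be tested there. At day 7 and over all days its only sham value of at least 1 TPM was 1.11 TPM, so its denervated samples carried it there too. With a minimum of any TPM above 0, Musk at day 3 had an adjusted p of 0.00338. At day 3, Musk, Dok7 and Ncam1 rose on the denervated side, 3 of 10 genes beside 1.01% of all genes tested. At day 7, Ncam1 rose, 1 of 10 beside 1.01%. No member passed as lower at either day, beside 0.442% and 0.511% of all genes. At day 1, 0 of 10 passed, and 0% of 14776 genes did; Musk, Lrp4 and Colq had an unadjusted p under 0.05, as had 634 genes in all. Over the 3 days together, with a term for the day, Musk and Ncam1 were higher (background 1.92%) and Ache was lower (background 1.18%) on the denervated side. The median difference of the 10 genes was -0.14, 0.10 and 0.03 on the log2 scale at days 1, 3 and 7, beside 0.01, -0.01 and 0.04 for all genes. Leaving out replicate 2 or replicate 3 of day 3 left 0 of the 10 genes past the threshold at day 3. Of all genes, 217 passed at day 3 with every mouse, 7 without replicate 2 and 0 without replicate 3. Without replicate 1, 133 of all genes passed and the 3 members held. Leaving out any mouse of day 7 left 0 of the 10 at day 7. All these fits with a mouse left out had 2 mice a side.

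Of the ligands, Agrn (chr4:156165290-156197488, minus strand) did not pass at any day. Its values at day 3 were 76.3, 80.1 and 84.4 TPM in sham samples and 78.6, 82.3 and 70.1 TPM in denervated samples, which overlapped. The log2 difference was -0.06 ± 0.10 (SE, adjusted p = 0.840) at day 3. At day 7 it was -0.31 ± 0.18 (adjusted p = 0.573), with the denervated side lower in 3 of 3 mice. ENSMUST00000154494, a transcript of 2071 bases annotated as retaining an intron, held 80.9% of the Agrn sum, so the level says little about complete Agrn mRNA. The coding transcripts of at least 300 bases summed to 14 ± 1.16 TPM (SD, n = 3) in sham and 10.9 ± 2.34 TPM in denervated samples of day 3. The z exons, which give nerve-derived agrin its power to cluster receptors, are the following run of 57 bases (exon of 24 bases in lower case, exon of 33 bases in capitals, chr4:156167777-156168569 with the intron between them left out).
Agrn z exons: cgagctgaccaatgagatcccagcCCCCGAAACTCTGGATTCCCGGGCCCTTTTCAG
ENSMUST00000105575, the only annotated transcript that holds both, was listed at 0 in all 18 samples. The exon of 24 bases is also annotated in the intron-retaining ENSMUST00000154494, so this 0 does not speak for that exon alone.

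Nrg1 (chr8:31814551-32884029, minus strand), a growth factor for ErbB receptors on muscle and Schwann cells, was low and did not pass at any day. At day 1 the denervated samples had 5.42, 2.46 and 2.2 TPM beside 2.81, 1.61 and 1.46 TPM in the sham samples of the same mice. The denervated side was higher in 3 of 3 mice, but the groups overlapped, and the log2 difference was 0.59 ± 0.37 (adjusted p = 0.999). At days 3 and 7 the differences were 0.04 ± 0.29 and -0.04 ± 0.27.

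Of the receptor pair, Lrp4 (chr2:91457511-91513779, plus strand), which binds agrin, differed little after day 1. At day 1 it measured 23.9, 22.3 and 19.8 TPM in sham and 17.6, 12.3 and 17 TPM in denervated samples. These groups did not overlap and all 3 mice were lower on the denervated side, by a log2 difference of -0.49 ± 0.16, which missed the threshold after adjustment (adjusted p = 0.999). At days 3 and 7 the groups overlapped, with differences of -0.10 ± 0.15 and 0.07 ± 0.22.

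Musk (chr4:58285960-58374303, plus strand), the kinase that LRP4 activates, was higher on the denervated side in 9 of 9 mice. At day 1 its level was 0.146, 0.867 and 0.710 TPM in sham and 1.10, 4.31 and 3.12 TPM in denervated samples. Day 3 gave 0.409, 0.344 and 0.445 TPM in sham and 5.23, 6.28 and 4.78 TPM in denervated samples. Day 7 gave 0.947, 0.463 and 1.11 TPM against 4.45, 2.80 and 3.07 TPM. The sides did not overlap at any of the days. The log2 difference was 1.57 ± 0.50 at day 1 (adjusted p = 0.999), 2.71 ± 0.18 at day 3 (adjusted p = 0.00237), which is 6.56-fold on the log2(TPM + 0.5) scale, and 1.57 ± 0.28 at day 7 (adjusted p = 0.0571). In a fit with the mouse as a block, day 7 passed as well (adjusted p = 0.0381). Over all days it was 1.95 ± 0.24 (adjusted p = 0.000205), and within mice it ran from 1.15 to 3.01. An exact sign-flip test over the 9 mice gave p = 0.00391, the smallest it can give. The change between days did not pass, with a difference of 1.15 ± 0.52 between day 3 and day 1 (adjusted p = 0.520) and of -1.15 ± 0.52 between day 7 and day 3 (adjusted p = 0.707). Its estimated reads were few, 7 to 303 per sample, so low sham values carry counting error.

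Of 8 annotated Musk transcripts, ENSMUST00000084578 held the most, 38.4% of the sum, and was the only transcript of the 10 genes that passed at day 3 when 32384 transcripts were tested on their own (0.3% of them passed). It rose by a log2 difference of 2.75 ± 0.33 (adjusted p = 0.0467), from a mean of 0.0880 ± 0.152 to 3.43 ± 0.723 TPM (SD, n = 3). With all sham values under 1 TPM, it was tested only because of its denervated samples. It holds an exon of 24 bases (chr4:58356482-58356505, plus strand) that ENSMUST00000102893 lacks, and this exon is printed here because the coding transcripts divide by it.
Musk exon of 24 bases: ATTATAAAAAAGAAAACATAACAA
At day 3, transcripts with this exon summed to 3.25, 4.25 and 3.25 TPM in denervated samples, and those without it to 1.05, 0.833 and 0.913 TPM. Their sham values were 0 to 0.445 TPM and 0 to 0.409 TPM. At day 7 the order in the denervated samples was 1.58, 1.03 and 1.21 TPM with the exon and 2.55, 1.47 and 1.46 TPM without it. Over the 9 mice, the log2 difference between sides was higher with the exon than without it by 0.95 ± 1.76 (SD), a description with no test, since the classes were compared with their values in view. Short reads divide such near-identical transcripts only through reads that touch the exon, so single values are uncertain.

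Of the adaptors, Dok7 (chr5:35056766-35087839, plus strand) rose at day 3. Sham samples had 6.97, 5.71 and 5.55 TPM and denervated samples 20.4, 23.0 and 29.0 TPM, with no overlap. This was a log2 difference of 1.90 ± 0.16 (adjusted p = 0.00466), or 3.72-fold. At day 1 the sides overlapped, with 2.83, 8.70 and 11 TPM in sham and 3.90, 6.80 and 7.18 TPM in denervated samples and a difference of -0.17 ± 0.49 (adjusted p = 0.999). At day 7 they overlapped too, with 14.8, 11.3 and 6.02 TPM against 15.4, 23.9 and 11.6 TPM, although the denervated side was higher in 3 of 3 mice, by 0.06, 1.05 and 0.90 (difference 0.67 ± 0.37, adjusted p = 0.542). The effect at day 3 exceeded that of day 1 by 2.07 ± 0.59, which did not pass over all genes (adjusted p = 0.245). It passed with the mouse as a block (adjusted p = 0.0486) and without day 1 replicate 1, the mouse of lowest muscle share (2.35 ± 0.46, adjusted p = 0.0351). The leading transcript, ENSMUST00000114270, held 60.7% of the sum and rose from 3.61 ± 1.16 to 17.1 ± 3.89 TPM at day 3, with an adjusted p of 0.0582 among transcripts.

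In the promoters, the Musk window held 3 E-boxes, which begin 177, 100 and 68 bases before the start site, and the Dok7 window printed above held 1, which begins 149 bases before it. Of 32851 RefSeq promoter windows of this length, 72.3% held at least 1 E-box and 17.6% held 3 or more. A further Dok7 window held 0. The N-box (CCGGAA, searched on both strands), a motif of ETS factors described in synaptic genes, was in none of the 8 windows found for 5 of the 10 genes (Musk, Agrn, Dok7, Ache and Etv5) and in 14.9% of all windows. Such a match is a description of letters only.

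Rapsn (chr2:91035620-91045729, plus strand), the receptor-clustering scaffold, was higher on the denervated side in 3 of 3 mice at day 3 and lower in 3 of 3 at day 1, with neither passing. At day 3 it measured 4.20, 7.56 and 5.5 TPM in sham and 7.29, 12.3 and 13.5 TPM in denervated samples. The groups overlapped slightly, and the difference was 0.88 ± 0.29 (adjusted p = 0.231). At day 1 it was -0.47 ± 0.51 and at day 7 it was 0.09 ± 0.28.

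Ache (chr5:137287519-137294466, plus strand) was lower on the denervated side over all days, where Musk and Ncam1 were higher. On day 3 there were 13.9, 18.3 and 18 TPM in sham and 4.15, 8.04 and 11.2 TPM in denervated samples. Day 7 gave 28.3, 16.4 and 12.3 TPM against 8.32, 9.96 and 8.17 TPM. At both days the sides did not overlap and the denervated side was lower in 3 of 3 mice. The single days did not pass, with differences of -1.14 ± 0.33 (adjusted p = 0.191) and -0.99 ± 0.29 (adjusted p = 0.227). Over all days the difference was -0.96 ± 0.20 (adjusted p = 0.0106), 0.512-fold, and 8 of 9 mice were lower. The remaining mouse was day 1 replicate 1, whose sides had 5.0 and 5.04 TPM. Rescaled to the muscle fibre markers, the difference over all days was -0.97 and the adjusted p 0.0873. The coding transcripts ENSMUST00000024099 and ENSMUST00000085934 together had 13.7 ± 3.24 TPM in sham and 4.93 ± 2.72 TPM in denervated samples of day 3 (SD, n = 3), and the intron-retaining ENSMUST00000150983 had 1.62 ± 0.480 and 1.17 ± 0.614 TPM. No Ache transcript passed when tested on its own at day 3 or 7.

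Colq (chr14:31523082-31591343, minus strand), the anchor of the enzyme, was apart at day 1. It measured 1.20, 3.08 and 2.56 TPM in sham and 0.231, 0.768 and 0.692 TPM in denervated samples, which did not overlap. All 3 mice were lower on the denervated side, with log2 differences of -1.22, -1.5 and -1.36. The difference of -1.36 ± 0.38 did not pass (limma, adjusted p = 0.999). At day 3 the levels were 3.41, 3.18 and 4.00 TPM against 3.47, 3.65 and 5.0 TPM, with a difference of 0.16 ± 0.18. At day 7 they were 6.55, 3.53 and 4.89 TPM against 3.18, 3.94 and 3.06 TPM, with -0.47 ± 0.23 (adjusted p = 0.492). The effect at day 3 exceeded that at day 1 by 1.52 ± 0.40, which did not pass with all mice (adjusted p = 0.198) and passed without day 1 replicate 1 (1.59 ± 0.32, adjusted p = 0.0351). The sides of Colq overlapped at days 3 and 7, where those of Ache did not.

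Groups that do not overlap are frequent with 3 samples a side. They were found for 3 of the 10 genes at day 1 (Musk, Lrp4 and Colq), 4 at day 3 (Musk, Dok7, Ache and Ncam1) and 3 at day 7 (Musk, Ache and Ncam1). Over all genes tested the shares were 9.56%, 21.5% and 17.6%.

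**Figure D2:**
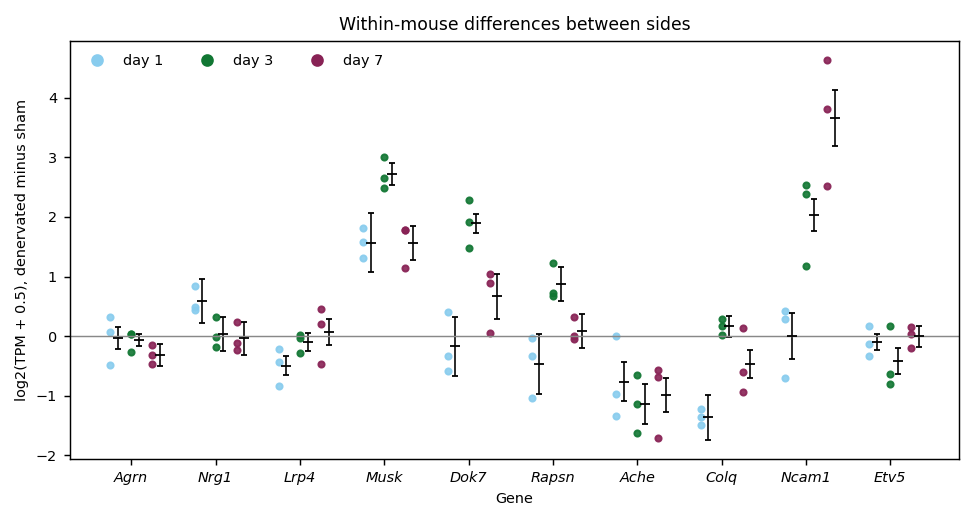
Difference of log2(TPM + 0.5) between the denervated and the sham side (y axis) for each gene. Points are the 3 mice of a day (colours), and black bars give the limma estimate with its SE; all 9 Musk points lie above 0, from 1.15 to 3.01, and the Ncam1 points of day 7 lie at 2.52, 3.82 and 4.64.

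Ncam1 (chr9:49502136-49798925, minus strand), the neural cell adhesion molecule, had the widest range of the 10 genes. At day 1 its level was 3.35, 5.34 and 3.79 TPM in sham and 4.65, 6.63 and 2.13 TPM in denervated samples, which overlapped (difference 0.00 ± 0.38). Day 3 gave 12.2, 7.66 and 9.88 TPM in sham and 28.3, 46.9 and 53.7 TPM in denervated samples. Day 7 gave 14.2, 4.19 and 4.41 TPM in sham and 84.0, 65.6 and 122 TPM in denervated samples. There was no overlap at days 3 and 7. The log2 difference was 2.03 ± 0.27 at day 3 (adjusted p = 0.0242), 4.10-fold, and 3.66 ± 0.47 at day 7 (adjusted p = 0.0147), 12.6-fold. In the blocked fit, day 3 missed the threshold (adjusted p = 0.0589), day 7 passed (adjusted p = 0.0170), and the difference over all days, 1.90 ± 0.44, went from an adjusted p of 0.0229 to 0.0726. Without any 1 mouse of day 3 or day 7 the difference over all days also missed the threshold, at adjusted p of 0.0536 to 0.0909. The effect at day 7 exceeded that at day 1 by 3.66 ± 0.62 (adjusted p = 0.0266). This missed the threshold with the mouse as a block (adjusted p = 0.0614) and when rescaled to the muscle fibre markers, where the difference was 3.40 (adjusted p = 0.489). Between day 7 and day 3 the effect differed by 1.63 ± 0.62 (adjusted p = 0.656).

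More than 1 form of Ncam1 was read, and the main ones are given with their own values. The transmembrane form ENSMUST00000193547, which holds the transmembrane exon (chr9:49509705-49509912) and not the extra exon of the longest form, was the main complete form on the sham side. It measured 3.36, 3.73 and 2.55 TPM in sham and 4.26, 3.96 and 2.94 TPM in denervated samples at day 3. At day 7 it was 4.36, 3.24 and 3.07 TPM against 4.11, 3.27 and 2.52 TPM, a difference of -0.10 ± 0.25 (adjusted p = 0.942). Both sides overlapped at each day for this form. Another transcript with the transmembrane exon was low and went the other way. At day 7 it had 0.104 ± 0.0290 TPM in sham and 2.27 ± 0.745 TPM in denervated samples (SD, n = 3). Its difference of 2.16 ± 0.37 did not pass (adjusted p = 0.108), and its sides did not overlap at days 3 and 7.

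ENSMUST00000114476, which lacks the transmembrane exon and is the form known to be held in the membrane by a lipid (GPI) anchor, measured 0.723, 0.309 and 0.894 TPM in sham and 2.43, 11 and 16 TPM in denervated samples at day 3. At day 7 it was 1.06, 0.285 and 0.418 TPM against 30.5, 22.8 and 31.8 TPM. The day 7 difference was 4.78 ± 0.31 on the log2 scale, which passed among 33372 transcripts (adjusted p = 0.0126, background 0.387%). At day 3 it was 2.88 ± 0.66 and did not pass (adjusted p = 0.214). Apart from the day 7 value of 1.06 TPM, the sham values of both days lay under 1 TPM. This form therefore entered both tests only through its denervated samples. Its share of the Ncam1 sum was 7.92% on the sham and 32.4% on the denervated side at day 7. That of the transmembrane form was 59.2% (30.7% to 77.5%) and 3.98% (2.07% to 4.98%). The short piece with the muscle exons is part of this sum, at 18.6% (0% to 55.8%) and 55.0% (48.3% to 66.3%). Coding transcripts of at least 300 bases, which leave that piece out, averaged 4.79 TPM in sham and 38.8 TPM in denervated samples. Of this, the GPI-anchored form was 0.589 and 28.4 TPM.

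The longest form, ENSMUST00000194252, which has the transmembrane exon and a further cytoplasmic exon (chr9:49506853-49507653), also rose at day 7. It went from 0.653, 0.435 and 0.289 TPM to 4.45, 3.85 and 3.74 TPM (2.25 ± 0.28, adjusted p = 0.0437). All 3 sham values lay under 1 TPM, so this form too entered the test only through the denervated samples. It is annotated with the muscle exon of 15 bases printed above, as is the short piece, and the exons of 48 and 42 bases are in the short piece alone.

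The short piece with the muscle exons was listed at 0 in 2 of 3 sham samples of day 7 and at 7.94 TPM in the other. The denervated samples had 40.6, 33 and 80.7 TPM. Day 3 gave 7.38, 3.03 and 5.90 TPM in sham and 19.3, 28.6 and 29.3 TPM in denervated samples. The differences of 2.20 ± 0.33 at day 3 (adjusted p = 0.0832) and 5.23 ± 1.13 at day 7 (adjusted p = 0.199) did not pass. TPM divides by length, so each read of so short a piece weighs heavily, and it held 54.9% of the Ncam1 sum. Without it, in coding transcripts of at least 300 bases, the Ncam1 difference was 1.72 at day 3 (adjusted p = 0.0754) and 2.91 at day 7 (adjusted p = 0.00217), with 4.79 ± 1.30 TPM in sham and 38.8 ± 5.77 TPM in denervated samples of day 7.

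The pairs of forms were picked with their values in view, so the differences between them are a description with no test. Over the 9 mice, the log2 difference between sides exceeded that of the transmembrane form by 2.71 ± 2.07 (SD) for the GPI-anchored form, 2.81 ± 2.41 for the short piece and 1.32 ± 1.10 for the longest form. In day 1 replicate 3 the short piece was listed at 0 on both sides. The excess of the GPI-anchored form averaged 0.56 at day 1, 2.70 at day 3 and 4.88 at day 7.

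**Figure D3:**
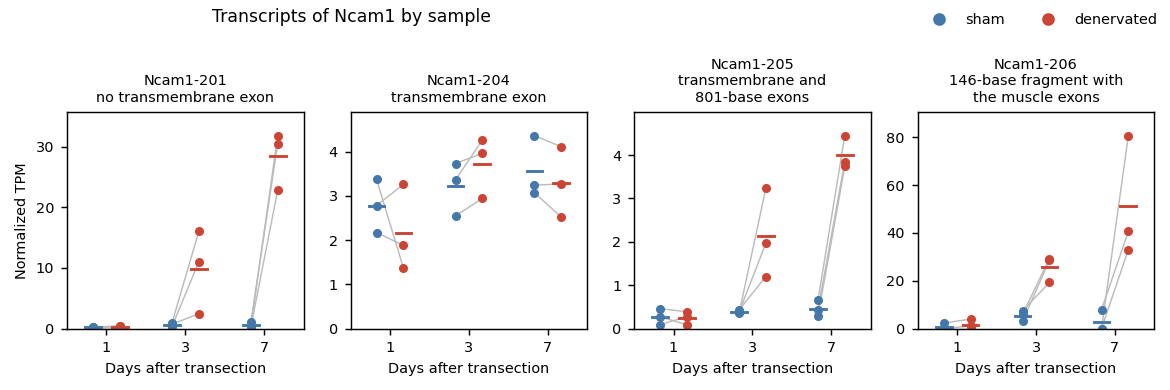
TPM (y axis, linear, from 0, each with its own scale) of 4 Ncam1 transcripts against days after transection, with blue sham and red denervated samples, grey lines joining the sides of a mouse and bars for means. The transmembrane form overlaps between sides at every day, while the other 3 (GPI-anchored form, longest form and short piece) separate at days 3 and 7.

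Schwann cells and satellite cells also make Ncam1, and their markers were read beside it. Of 10 Schwann cell markers, 1 rose at day 7, Ngfr, a receptor of Schwann cells that have lost their axon, from 3.44 to 6.48 TPM in sham to 13.1 to 19.5 TPM in denervated samples (log2 difference 1.6 ± 0.25, adjusted p = 0.0312). The summed Schwann markers were 537 to 955 TPM in sham and 447 to 480 TPM in denervated samples of day 7, and none was at 0. Of 5 satellite cell markers only 2, Cdh15 and Vcam1, were high enough to be tested. Of these, Cdh15 rose at day 3 (2.24 ± 0.24, adjusted p = 0.0117) and Vcam1 did not pass, with a median difference of 1.15 over both. The 5 markers summed to 4.49 to 10.1 TPM in sham and 15.2 to 20.9 TPM in denervated samples of day 3. Cdh15 alone made up 1.87 to 2.21 TPM and 8.85 to 16.9 TPM of this, so the sum is not separate from it. At day 7 the sum was 7.61 to 7.94 TPM and 11 to 13.6 TPM. Myf5, a factor of myogenic cells, did not overlap between sides at day 3 (0.507 to 0.846 TPM in sham, 0.887 to 1.48 TPM in denervated samples), and Cdh15 did not overlap at day 7 either (2.11 to 3.97 and 5.98 to 6.77 TPM). Pax7, the defining satellite cell factor, overlapped at day 3 (0.127 to 0.278 and 0.142 to 0.285 TPM) and at day 7 (0.10 to 0.264 and 0.105 to 0.268 TPM). Calcr, a further marker on this list, also overlapped at day 3 (0.0529 to 0.0949 TPM in sham, 0 to 0.0679 TPM in denervated samples). The muscle fibre markers summed to similar ranges at day 7, 22777 to 26723 TPM in sham and 23843 to 27536 TPM in denervated samples, with Actn3 higher and Ckm lower. Of 5 neutrophil markers, 1 passed at day 7, S100a8 (log2 difference 4.33 ± 0.51, adjusted p = 0.0115), and the median difference of the 5 was 1.19. Their sum, which includes S100a8, was 43.9 to 244 TPM in sham and 1356 to 2658 TPM in denervated samples of day 7. At day 3 it was 33.9 to 348 and 371 to 1468 TPM. At day 1 it was 25.5 to 959 and 96.9 to 1989 TPM, which overlapped. The part of these cells in the changes of Ncam1, Musk and Dok7 was not tested.

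Etv5 (chr16:22381309-22439719, minus strand), an ETS factor for synaptic genes downstream of neuregulin, did not pass at any day. At day 3 it measured 9.38, 7.57 and 7.20 TPM in sham and 5.19, 4.67 and 8.20 TPM in denervated samples, which overlapped (difference -0.42 ± 0.22, adjusted p = 0.448). The sides overlapped at days 1 and 7 as well.

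On the sham side 0 of the 10 genes changed between days 1 and 3 or between days 3 and 7 (limma), as did 0% of all genes in each comparison. Ache and Ncam1 had an unadjusted p under 0.05 from day 1 to day 3, as had 1984 of all genes, and 0 of the 10 had from day 3 to day 7. The mice of each day differ. On the denervated side, 4 genes were higher at day 3 than at day 1, beside 7.31% of all genes. These were Ncam1 (3.19 ± 0.44, adjusted p = 0.000709), Colq (2.12 ± 0.29, adjusted p = 0.000643), Rapsn (2.1 ± 0.42, adjusted p = 0.00701) and Dok7 (1.96 ± 0.42, adjusted p = 0.0105). The share of muscle moved with this comparison, and after rescaling to the muscle fibre markers 0 of the 4 passed, at differences of 2.43, 1.69, 1.42 and 1.19 (adjusted p of 0.0542, 0.117, 0.210 and 0.277). Dok7 also missed the threshold without replicate 2 or 3 of day 3 (adjusted p = 0.0534 and 0.0538). From day 3 to day 7, 0 of 10 changed on the denervated side (background 0.298%), and Lrp4 and Ncam1 had an unadjusted p under 0.05.

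As to the effect of denervation itself, 0 of the 10 genes differed between days 3 and 1 (background 0.122%; 5 at an unadjusted p under 0.05), 1 differed between days 7 and 1, Ncam1 (background 0.163%), and 0 differed between days 7 and 3 (background 0%; 2 at an unadjusted p under 0.05). Once blocked by mouse, Dok7 passed in the first of these and Ncam1 no longer passed in the second.

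**Figure D4:**
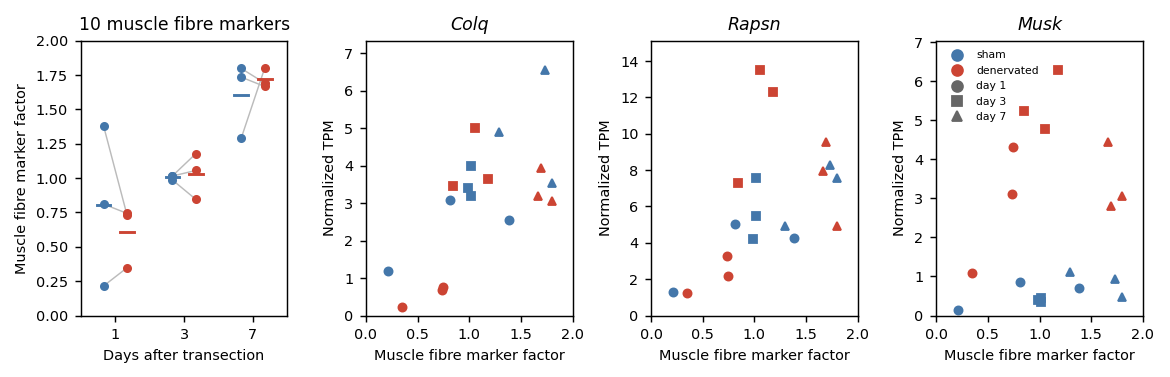
The muscle fibre marker factor by sample (left, geometric mean of 10 markers, 1 is the average) and TPM of Colq, Rapsn and Musk against it (linear axes from 0; colours are sides, symbols are days). The samples of day 1 replicate 1 lie at 0.215 and 0.347, and denervated Musk values lie above all sham values of the same day at any factor.

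Of 18 genes of MuSK signalling (kinases and cytoskeletal adaptors below MuSK), 0 passed at any single day, with median differences of 0.04, 0.09 and 0.16 at days 1, 3 and 7, and 2 were higher over all days. These were Cdc42 (0.35 ± 0.09, adjusted p = 0.0372), a regulator of the actin cytoskeleton, and the chaperone Hsp90ab1 (0.29 ± 0.07, adjusted p = 0.0411). Neither passed with a mouse block (adjusted p = 0.0763 and 0.0505). Of 9 genes of the neuregulin receptors and ETS factors, 0 of the 7 or 8 that could be tested passed. Of 12 genes of the synaptic basal lamina, 0 of 9 or 10 passed. Of 11 genes of the subsynaptic nuclei and cytoskeleton, 1 passed at days 3 and 7, and Kif5b, a kinesin, was higher over all days (0.39 ± 0.09, adjusted p = 0.0193). The former was Dtna, which encodes dystrobrevin of the postsynaptic dystrophin complex. It went from 24.7 ± 2.75 to 49.9 ± 2.87 TPM at day 3 (1.00 ± 0.11, adjusted p = 0.0126) and from 33.4 ± 4.00 to 77.0 ± 6.73 TPM at day 7 (1.20 ± 0.13, adjusted p = 0.00997).

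For scale, 5 of 6 genes known to answer denervation rose at both day 3 and day 7. Myog, which encodes myogenin, rose from 4.65 ± 2.15 to 181 ± 17.1 TPM at day 3, and the receptor subunits Chrna1, Chrnb1, Chrnd and Chrng also passed. Chrng, the fetal subunit, rose by 5.71 ± 0.38 on the log2 scale at day 3. With sham values of 0.274 to 0.449 TPM, it was tested there only because of its denervated samples. At day 7, with a sham mean of 0.775 TPM (0.181 to 1.92), its denervated samples carried it past the minimum too. Chrne, the subunit of the adult synapse, had 22.6 ± 6.15 TPM in sham and 23.0 ± 11.3 TPM in denervated samples of day 3. The differences of Musk, Dok7 and Ncam1 at day 3 were thus smaller in value than that of Chrna1, at 3.67 ± 0.29, which was not tested.

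Genes whose log2 values were among the most alike over the 18 samples are given as a description, with Pearson's r and no test, since all samples share day, side and muscle share. For Musk they were Alpk2 (r = 0.940) and the growth factor gene Gdf5 (r = 0.937). For Dok7 they were Iffo1 (r = 0.951), Wfs1 (r = 0.937) and Cdh15 (r = 0.934). For Ncam1 they were Cul4a (r = 0.950), Tmem64 (r = 0.947) and Ttc9 (r = 0.942). Tmem64 had denervated means of 14.8, 37.5 and 41.5 TPM at days 1, 3 and 7, and the denervated mean of Ncam1 was likewise highest at day 7.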

How the data were processed

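RNA of 18 whisker pad biopsies (TruSeq RNA v2 libraries) was measured. Per the labels, the authors used bcl2fastq 2.17.1.14, kallisto 0.43.1 and sleuth with mouse build GRCm38, after duplicate reads were removed with ParDRe and adapters trimmed with Fastp. The deposited signal values are TPM per transcript that the authors normalized between samples. Sample totals lie between 833186 and 1143839, above what plain TPM allows in 10 of 18 samples, so the tests planned for plain TPM were kept on these values. Of 113194 transcripts, 98.46%, with 99.48% of the values, matched GENCODE M21 and were summed for 35150 genes. No column was left unmapped; those of day 7 were matched to samples by day, side and sequencing index, since their mouse numbers differ from the sample titles. The kit is not stated to keep strand.

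Genes were tested with limma 3.58.1 (R 4.3.3) on log2(TPM + 0.5), with the prior variance allowed to follow the mean, for genes that reached 1 TPM in no fewer than 47% of samples, with Benjamini-Hochberg adjustment over all genes at 0.05. Sides were compared within each day, over all days with a day term, and between days as interactions or on 1 side. Transcripts were tested likewise. Both sides of a mouse share a number because they come from the same animal: their residuals correlated at 0.131 to 0.511 in all 9 mice. The mouse as a block was an alternative, since the study compared sides with no mouse term. Sign-flip tests over mice are exact and two-sided. Exact tests of 3 against 3 samples cannot go below 0.10 and were not used.

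Depth was estimated from low values of long single-transcript genes times length, of which 74.7% to 83.3% lay within 0.1 of a whole read, where 20% would if spread evenly; it covers counting error only, with a median of 14500000 reads. On simulated data with 200 changed genes, the test recovered 67.9%, 71.9% and 64.3% of those tested at days 1, 3 and 7, and 90.7% over all days. The simulated noise was independent between samples, with the same spread of a gene at each day. Set fold changes were given to genes that were not among the lowest. These shares thus do not cover the uneven muscle share of day 1, and real recovery there can be lower.

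The members and lists were chosen with earlier results of these data known. Named genes were all members, list genes past the threshold at day 3 or 7, the 3 most alike genes of each called member (1 of them is not reported here), and the leading or called transcripts. The uncalled transmembrane transcripts of Ncam1 and the other Musk, Ache and Agrn transcripts were named after their values were seen. So were the genes called over all days alone and the markers. Alternatives were other pseudocounts (0.1, 1), other minimums (above 0, 5), rescaling by median of ratios, to equal sums or to muscle markers, no trend, 1 fit of 18 samples, single transcripts, sign flips, 2 days only and each mouse left out. Sums of coding transcripts of at least 300 bases were added after the data were seen. Python 3.11.15 with numpy 2.4.6, pandas 2.3.3 and matplotlib 3.10.9 did the rest. Promoters are from RefSeq (GRCm38.p6), found for 5 of 10 genes.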

Additional observations from a re-analysis of the deposited data

Results flagged for a closer look

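The effect of denervation on Ncam1 was larger at day 7 than at day 1 in the fit without a mouse block, and missed the threshold with it (adjusted p = 0.0614). At day 7 it exceeded that of day 1 by 3.66 ± 0.62 on the log2 scale (limma interaction, adjusted p = 0.0266), with day 7 differences of 2.52, 3.82 and 4.64 in the 3 mice and day 1 differences of 0.42, 0.29 and -0.70. The muscle fibre marker factor was 0.347 to 0.744 in the denervated samples of day 1 and 1.67 to 1.80 in those of day 7, and rescaled to it the difference was 3.40 (adjusted p = 0.489). Of the mice left out in turn, the call was lost without replicate 2 or 3 of any day, at adjusted p of 0.0576 to 0.208, and held without replicate 1 of any day.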

How the results depend on the processing

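Of 692 values of single genes under alternatives, 630 kept direction and side of the threshold, 36 lost and 5 gained it, and 21 turned direction, with no called value among the last. Of counts of called genes, the 3 at day 3 became 1 with each transcript on its own, and 0 to 3 with a mouse left out. The calls over all genes at day 3 went from 217 to 133, 7 and 0 without replicates 1, 2 and 3 of that day. The 1 at day 7 became 2 (with Musk) under equal sums, the mouse as a replicate block, no trend, 1 fit of all samples and coding transcripts, and 0 with any of its mice left out. The 3 over all days became 0 with sign flips, which cannot pass over so many genes, and 2 to 3 with a mouse left out. The 0 between the effects of days 3 and 1 became 1 with the block and 0 to 2 with a mouse left out. The 1 between days 7 and 1 became 0 with the block or muscle markers and 0 to 1 with a mouse left out. The 4 between denervated days 3 and 1 became 0 with muscle markers and 3 to 4 with a mouse left out. The block changed no other call beside those given with the results. Directions turned for uncalled differences near 0. At day 1 they did so with a mouse left out for Dok7 (-0.4587 to 0.0325), Agrn (-0.2056 to 0.1995), Ncam1 (-0.2065 to 0.3539) and Etv5 (-0.2350 to 0.0213), and for Agrn by muscle markers (0.0840) and coding transcripts (0.1284) and Ncam1 at pseudocount 0.1 (-0.0100) and coding transcripts (-0.2295). At day 3 they did so with a mouse left out for Agrn (-0.1134 to 0.0407) and Nrg1 (-0.0951 to 0.1540), and for Nrg1 by equal sums (-0.0015). At day 7 they did so with a mouse left out for Rapsn (-0.0268 to 0.1589), Lrp4 (-0.1263 to 0.3302), Etv5 (-0.0799 to 0.0927) and Nrg1 (-0.1771 to 0.0594), by muscle markers for Rapsn (-0.0097) and Lrp4 (-0.0413), and by equal sums for Etv5 (0.0044). Musk at day 1 could not be fitted in the sum of coding transcripts, and a minimum of 5 TPM left Musk untested. The cause of these moves was not tested. Low levels limit Musk, Colq and Nrg1.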
